A study of Mus musculus with 6 samples.

Results

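CD8 T cells of mice with diet-induced steatohepatitis were selected on measured values, the transcripts of 7 genes counted in each liver non-parenchymal cell, so these genes are described and not tested. A cell was kept when it had under 5000 genes and under 5% of its unique molecular identifiers (UMIs, 1 per counted transcript molecule) from mitochondrial genes, which left 27544 of 33168 barcodes. A kept cell was taken as a CD8 T cell when it held at least 2 UMIs of Cd3d, Cd3e and Cd3g summed, at least 2 of Cd8a and Cd8b1 summed, no Cd4 UMI and at most 1 Cd79a UMI. This rule found 2167 cells, of which 1260 came from 3 vehicle libraries and 907 from 3 ginkgetin libraries. Within them, cells with at least 1 UMI of Gzmk or Pdcd1 were set against the rest. They numbered 837, with 525 holding Gzmk without Pdcd1, 88 Pdcd1 without Gzmk and 224 both, and 1330 cells held neither. All mice were male C57BL/6J, bought at 8 weeks of age and given a high-fat diet for 24 weeks. In the last 8 weeks they received vehicle (DMSO) or ginkgetin, a biflavone of Ginkgo biloba leaves, at 10 mg/kg/day by the intragastric route. No mice on a control diet were among the single-cell libraries, and the labels do not say whether a library was 1 mouse or a pool.

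CD8 T cells recognise peptides shown on class I molecules through the CD8 coreceptor, a dimer of the products of Cd8a and Cd8b1, and kill their targets with perforin and granzymes. Naive cells circulate through lymph nodes under the chemokine receptor Ccr7 and keep the transcription factors Tcf7 and Lef1 high, whereas cells that have met antigen lose them and gain cytotoxic genes, chemokines and tissue-homing receptors. Gzmk encodes granzyme K, and Pdcd1 encodes the inhibitory receptor PD-1, which is kept on chronically stimulated CD8 T cells together with the transcription factors Tox and Eomes. CD8 T cells carrying these genes have been described in the steatotic liver.

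The libraries held 13128697 to 61796882 UMIs. The median CD8 T cell had 3384, 2839 and 4905 UMIs in vehicle libraries 1, 2 and 3 and 3037, 4229 and 5865 in ginkgetin libraries 1, 2 and 3. Ribosomal protein genes made up 54.5% of the UMIs of the median CD8 T cell in ginkgetin 2 and 20.9% in ginkgetin 3, against 31.2% to 39.6% elsewhere. By the barcodes they shared, the libraries fell into 2 sets (table sets A and B). Replicates 1 and 2 of both groups were in set A and replicate 3 of both groups in set B. The tables listed the same genes, but 3199 of them were counted in 1 set only. T cell receptor genes were counted in set B only. The libraries shared 0 to 85 barcodes in pairs, and no pair shared more than 1 barcode among CD8 T cells. Of the CD8 T cells, 1383 held 2 or more UMIs summed over the marker lists of macrophages, endothelial cells, hepatocytes, B cells, dendritic cells and neutrophils, from 33.8% of them in ginkgetin 1 to 93.6% in ginkgetin 2.

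T cell genes outside the rule were found in these cells. Cd2, Cd5, Cd247 and Lck were detected in CD8 T cells of all 6 libraries, summing to 1127, 1141 and 958 CPM in vehicle and 768, 588 and 780 CPM in ginkgetin libraries (counts per 1000000 UMIs without scaling). In both replicate 3 libraries every CD8 T cell had at least 1 UMI of Trac, Trbc1 or Trbc2, the constant regions of the alpha-beta T cell receptor. Trdc, of the gamma-delta receptor, was found in 1.1% of CD8 T cells of vehicle 3 and 3.7% of ginkgetin 3. At least 1 UMI of a constant region of the gamma or delta chain (Trdc, Tcrg-C1, Tcrg-C2 or Tcrg-C4) was more common, in 28.1% and 41.1% of them, and in 70.2% of the ginkgetin 3 cells that held no Cd8b1 UMI. Tcrg-C4 alone was found in 11.1% of CD8 T cells of vehicle 3 and 30.9% of ginkgetin 3. Near the edge of the rule, 347 cells held exactly 2 CD8 UMIs and 312 further cells failed by holding only 1. On the CD3 side 61 cells held exactly 2 UMIs, while 40 otherwise eligible cells held 1 and 111 held none. A Cd4 UMI removed 18 cells, and 2 or more Cd79a UMIs removed 12.

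CD8 T cells made up a smaller part of the T cells in the ginkgetin libraries, whereas the overlap of the groups in their part of all kept cells depended on the cell filter. They were 48.0%, 40.2% and 41.6% of CD3-gated cells (the CD3 and Cd79a conditions alone) in the vehicle libraries and 32.3%, 26.4% and 32.1% in the ginkgetin libraries. Every vehicle library lay above every ginkgetin library. The means were 43.3% ± 4.201 and 30.3% ± 3.35 (SD, n = 3 each), a difference of -13.0 percentage points (two-sided exact permutation test over libraries, p = 0.10, the smallest that 3 against 3 libraries allow; 0.15 after Benjamini-Hochberg adjustment over the 3 shares tested). The difference was -14.7 points over replicates 1 and 2 and -9.50 points in replicate 3. Of all kept cells, CD8 T cells made up 10.6%, 7.94% and 8.70% in the vehicle libraries and 11.3%, 3.83% and 6.75% in the ginkgetin libraries. These means, 9.07% ± 1.34 and 7.31% ± 3.78, differed by -1.76 points (exact permutation p = 0.50), by -0.022 points without ginkgetin 2, by -3.77 points without ginkgetin 1 and by -1.02 points without vehicle 1. With the stated limits read as 250 to 5000 UMIs per cell the groups no longer overlapped, at 16.3%, 12.6% and 15.6% against 10.3%, 3.03% and 4.22% of kept cells, a difference of -8.96 points. They were also apart when cells with 2 or more UMIs of the markers of other cell types were left out of both counts, at 42.1%, 31.0% and 32.1% against 24.3%, 14.4% and 23.9%, a difference of -14.2 points (exact permutation p = 0.10 in each case, the smallest possible). This last share is of cells poor in such markers and not of all kept cells. It rests on 17 CD8 T cells in ginkgetin 2 and 27 in vehicle 3. The share of conventional CD4 T cells among CD3-gated cells ran from 10.9% to 15.9% in vehicle and from 9.66% to 23.1% in ginkgetin libraries. CD3-gated cells with no UMI of Cd4, Cd8a or Cd8b1 made up 33.7% to 41.1% in vehicle and 39.9% to 56.0% in ginkgetin libraries.

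Gzmk or Pdcd1 cells made up a smaller part of the CD8 T cells in the ginkgetin libraries. Since a deeper cell is more likely to show a UMI of any gene, each cell was thinned at random to 1000 UMIs before these cells were counted, which left out 1 shallower cell of ginkgetin 3. Gzmk or Pdcd1 cells then made up 29.3%, 32.8% and 25.8% of CD8 T cells in the vehicle libraries. In the ginkgetin libraries they made up 9.60%, 1.89% and 3.67%, from 38, 5 and 9 cells. The highest ginkgetin library was far below the lowest vehicle library, and the exact binomial 95% intervals, which cover counting error only, ran from 21.4% to 38.8% across the vehicle libraries and from 0.615% to 12.9% across the ginkgetin libraries. The means were 29.3% ± 3.499 and 5.05% ± 4.04 (SD, n = 3 each), a difference of -24.3 points (exact permutation p = 0.10, adjusted 0.15). It was -25.3 points over replicates 1 and 2 and -22.2 points in replicate 3. Without thinning the shares were 48.7%, 60.0% and 56.9% against 27.8%, 8.30% and 13.0%. After the cells with 2 or more UMIs of the markers of other cell types were left out, the thinned means were 26.4% and 4.61%, with 17 CD8 T cells left in ginkgetin 2 and 27 in vehicle 3.

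Both genes of the rule took part. Thinned CD8 T cells with Gzmk made up 23.6%, 25.7% and 21.7% in vehicle and 8.59%, 1.89% and 3.27% in ginkgetin libraries. For Pdcd1 the shares were 9.45%, 11.7% and 6.94% against 3.03%, 0% and 0.408%, and the 0 of 265 cells of ginkgetin 2 allows a share of up to 1.13% of cells with a UMI at this depth, not of cells that express the gene. In unthinned cells Pdcd1 was found in 35.4%, 32.1% and 28.3% of Gzmk cells of the vehicle libraries and in 28.3%, 0% and 6.25% of those of the ginkgetin libraries. The overlap of the genes in ginkgetin 1 was thus close to that of vehicle libraries, while in ginkgetin 2 and 3 it rested on 21 and 32 Gzmk cells. No thinned B cell held either gene, at median depths of 2042 to 3885 UMIs, and no thinned NK cell held Gzmk. Thinned conventional CD4 T cells held Gzmk in 3.85% to 7.97% of cells of the vehicle libraries and in 0% to 0.943% of those of the ginkgetin libraries. They held Pdcd1 in 5.56%, 1.28% and 10.1% of vehicle and 0.472%, 0% and 0.565% of ginkgetin cells, so that in vehicle 3 the share was above that of CD8 T cells. Thinned NK cells held Pdcd1 in 3.51% of vehicle 2 and 1.06% of vehicle 3 and in none of the other libraries. Tigit and Havcr2, further inhibitory receptors, were sparse, with Tigit in at most 0.755% and Havcr2 in at most 4.25% of thinned CD8 T cells of any library.

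**Figure D1:**
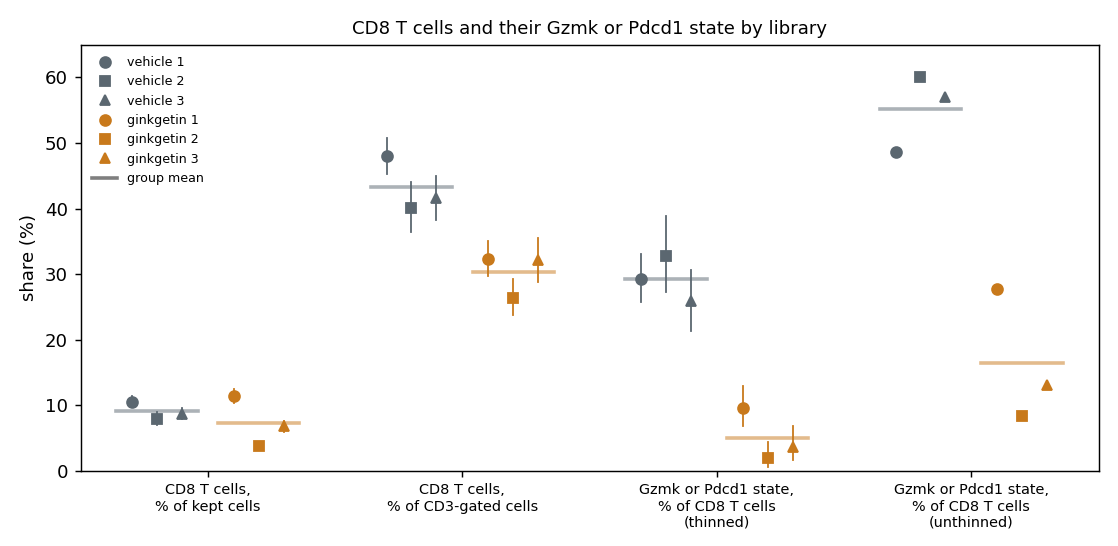
Shares of CD8 T cells by library, in percent, with 1 point per library, a horizontal bar at the mean of each group and, except for the unthinned shares, vertical lines for exact 95% binomial intervals. The 3 vehicle libraries lie above the 3 ginkgetin libraries for CD8 T cells among CD3-gated cells and for Gzmk or Pdcd1 cells among CD8 T cells thinned to 1000 UMIs, and the groups overlap for CD8 T cells among kept cells.

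Across genes, the UMIs of all CD8 T cells were summed per library and compared between the groups with edgeR. A gene was called when its adjusted p (Benjamini-Hochberg over all genes tested) was below 0.05 and it differed more than 2-fold. Of 8151 genes tested none was called (0%), with a smallest adjusted p of 0.134, although 690 genes had an unadjusted p under 0.05 and DESeq2 called 49. The study states no pairing of libraries. Same-numbered libraries were taken as pairs from correlations in these data, which separated them weakly within set A. With the replicate number as a block edgeR called 30 genes (0.368%), 12 higher and 18 lower in ginkgetin. Gzmk, Eomes, Jun, Ctla2a, Hspa1a and Hspa1b were among those lower. With set A or B of the tables as the block edgeR called 2 genes, both lower, and of these 6 only Hspa1a was called. Levels below are counts per 1000000 UMIs (CPM) of the 16455 genes used, without TMM scaling. Those said to be without scaling are per 1000000 UMIs of all genes instead. Fold changes come from the fits, after TMM scaling, and are log2 of ginkgetin over vehicle with the SE.

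Gzmk stood at 291, 331 and 216 CPM in the vehicle libraries and at 86.1, 23.8 and 34.7 CPM in the ginkgetin libraries. The groups did not overlap, and the log2 fold change was -2.51 ± 0.49 (edgeR adjusted p = 0.277 without and 0.029 with the replicate block). Pdcd1 stood at 97.5, 148 and 56.6 against 38.7, 1.70 and 4.34 CPM, also without overlap, at -2.68 ± 0.85 (adjusted p = 0.503, with the block 0.0989). Eomes, a T-box factor of effector and memory CD8 T cells, stood at 102, 207 and 104 against 26.8, 30.5 and 35.3 CPM. Its log2 fold change was -2.16 ± 0.38 (adjusted p = 0.207, with the block 0.0179), and the 3 ginkgetin libraries lay close together at about the same low level. Tox, which sustains the exhausted program, was measured at 125, 179 and 132 against 84.2, 22.9 and 95.4 CPM (-1.19 ± 0.39, adjusted p = 0.518). Cxcr6, a homing receptor of liver-resident T cells, was at 297, 354 and 380 against 215, 56.0 and 286 CPM (-1.002 ± 0.41, adjusted p = 0.563). For Tox and Cxcr6 the groups did not overlap, but neither gene was called with or without the block. Maf and Entpd1, which mark chronically stimulated T cells, did not overlap either, at -1.21 ± 0.37 and -1.35 ± 0.41 (adjusted p = 0.484 and 0.463).

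Among cytotoxic genes Gzmk was the only member called, and only with the replicate block. Of the 13 tested, 10 had a negative log2 fold change, with a list median of -0.53 against 0.02 for all genes tested. Nkg7, a granule protein, was at 3339, 3171 and 1877 CPM in vehicle and 2140, 1038 and 1189 in ginkgetin libraries (-0.92 ± 0.49, adjusted p = 0.654). Gzma, encoding granzyme A, was at 1014, 385 and 271 against 1313, 196 and 1443 CPM (0.69 ± 0.66, adjusted p = 0.807). Here ginkgetin 1 and 3 lay above every vehicle library and ginkgetin 2 below them all. The level of ginkgetin 3 came mainly from cells without a Cd8b1 UMI, a split described below with no test. Without scaling, cells with a Cd8b1 UMI had 868, 303 and 208 against 1326, 170 and 191 CPM, with ginkgetin 3 below every vehicle library. Gzmb was at 1078, 409 and 234 against 1035, 108 and 1017 CPM, with only ginkgetin 2 outside the vehicle range. In cells with a Cd8b1 UMI, without scaling, Gzmb was at 750.4, 353.2 and 200.7 against 918.04, 83.496 and 159.9 CPM. There ginkgetin 1 lay above every vehicle library and ginkgetin 2 and 3 below them all, again with no test. Ctsw, cathepsin W, overlapped between the groups only through ginkgetin 3 (423, 339 and 455 against 182, 119 and 375 CPM; -0.95 ± 0.31, adjusted p = 0.523). Ccl5, a chemokine of effector cells and the most abundant of these transcripts, was at 36420, 26128 and 14272 against 25534, 9404 and 8988 CPM (-0.76 ± 0.71, adjusted p = 0.801), and its libraries overlapped.

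Naive and memory genes leaned the other way in 2 of the 3 ginkgetin libraries. Of 18 tested, 15 had a positive log2 fold change, with a list median of 0.94. Ccr7 was at 18.9, 14.3 and 61.8 CPM in vehicle and 37.4, 139 and 201.3 CPM in ginkgetin libraries (1.96 ± 0.62, adjusted p = 0.502). Lef1 was at 60.5, 29.8 and 82.5 against 39.9, 145 and 214 CPM (1.17 ± 0.52, adjusted p = 0.586). Ginkgetin 2 and 3 were above all vehicle libraries for both genes, and ginkgetin 1 was within the vehicle range. For other members ginkgetin 1 lay below every vehicle library, in CPM without scaling at 123 for Il7r against 159 to 452, at 181 for Klf2 against 264 to 685 and, by a small margin, at 87.9 for Tcf7 against 88.9 to 159.5. The summed level of the list was 1916, 1829 and 2891 CPM in vehicle and 1167, 3156 and 3987 CPM in ginkgetin libraries, lowest in ginkgetin 1, so the lean was that of ginkgetin 2 and 3. Among thinned cells Ccr7 was found in 1.13% to 3.06% of vehicle CD8 T cells and in 3.79%, 11.3% and 13.5% of ginkgetin CD8 T cells. With the replicate block, 2 of the 18 were called higher, namely Ccr9, a gut-homing receptor carried by naive CD8 T cells (2.62 ± 0.55, block adjusted p = 0.0337), and Igfbp4 (2.41 ± 0.57, block adjusted p = 0.0448). Neither was called with set A or B as the block. Without scaling Ccr9 was at 2.452, 3.555 and 4.646 CPM in vehicle and 10.52, 10.94 and 49.90 CPM in ginkgetin libraries. It passed the filter on low counts through the ginkgetin libraries alone, so its call is given as a description only.

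**Figure D2:**
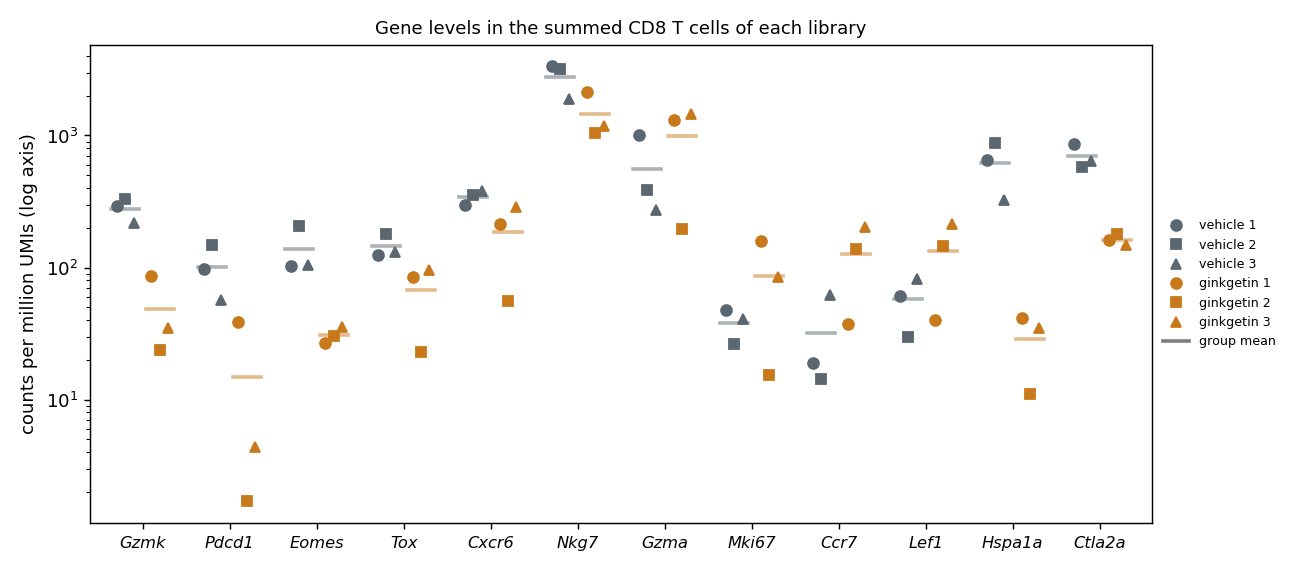
Levels of named genes in summed CD8 T cells by library, in CPM without TMM scaling on a log axis. There is 1 point per library and a bar at the mean of each group. Gzmk, Pdcd1, Eomes and Hspa1a are lower in all 3 ginkgetin libraries than in any vehicle library, whereas for Ccr7 and Lef1 ginkgetin 1 lies within the vehicle range and ginkgetin 2 and 3 above it.

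Heat shock genes, which encode chaperones induced by protein stress, had the largest share of members without overlap among the 15 function lists. All 9 had a negative log2 fold change (median -1.13), and for 7 of the 9 every ginkgetin library was below every vehicle library, against 7.03% of all genes tested in that direction and 3.86% in the other. Hspa1a was at 654, 880 and 323 CPM in vehicle and 41.2, 11.03 and 34.7 CPM in ginkgetin libraries (-4.48 ± 0.56, adjusted p = 0.134, with the block 0.0179). Hspa1b was at 165, 294 and 428 against 44.3, 10.2 and 70.6 CPM (-2.93 ± 0.51, adjusted p = 0.207, with the block 0.0337). Hsph1 and Dnajb1, their partner chaperones, had -1.42 ± 0.42 and -1.18 ± 0.31 (adjusted p = 0.447 and 0.381). Hspa1a was also lower in the ginkgetin libraries in other lymphocytes. In CPM without scaling Hspa1a was at 723, 678 and 348 against 95.9, 24.5 and 24.1 in B cells, at 717, 524 and 371 against 41.3, 3.0 and 27.1 in CD4 T cells, and at 477, 382 and 279 against 14.8, 33.8 and 23.6 in NK cells. In each of these populations the groups were apart. Jun, an immediate early gene that dissociation of tissue can also induce, was at 184, 240 and 286 against 53.7, 66.2 and 113 CPM in CD8 T cells (-1.64 ± 0.29, adjusted p = 0.207, with the block 0.0336). Not every immediate early gene fell. Without scaling Egr1 was at 17.2, 28.4 and 36.1 against 39.0, 45.5 and 38.2 CPM. Fos was at 70.7, 92.4 and 129 against 106, 154 and 145 CPM. Of 16 such genes, 3 had a positive log2 fold change between the groups in Gzmk or Pdcd1 cells (median -0.39) and 5 in the remaining cells (median -0.29). Ctla2a, a cathepsin inhibitor of activated T cells, was at 868, 577 and 643 against 160, 178 and 149 CPM (-2.03 ± 0.37, adjusted p = 0.230, with the block 0.0337).

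Markers of other liver cells moved with the groups in the summed CD8 T cells. Without scaling, the 9 macrophage markers summed to 267, 302 and 178 CPM in vehicle and 58.2, 114 and 54.2 CPM in ginkgetin libraries. The 6 endothelial markers summed to 39.2, 62.8 and 43.9 against 195, 717 and 171 CPM, and with the replicate block all 6 of them were called higher while C1qb and C1qc of the macrophage list were called lower. Hepatocyte markers summed to 263, 530 and 704 against 30.9, 386 and 56.7 CPM. The 4 neutrophil markers summed to 43.7, 23.7 and 20.1 against 21.7, 90.1 and 423 CPM, highest in ginkgetin 3. The part of these transcripts in the group differences was not tested. Leaving out the cells with 2 or more UMIs of such markers kept 322, 62 and 27 CD8 T cells of the vehicle and 262, 17 and 94 of the ginkgetin libraries. The log2 fold change was then -2.11 for Gzmk, -2.08 for Pdcd1, -2.35 for Eomes, -4.39 for Hspa1a and -2.33 for Hspa1b. It was nearer to 0 for Cxcr6 (-0.63) and Entpd1 (-0.41), and that of Mki67 changed sign to -0.45.

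The groups were also compared within the state, to ask whether its cells differed and not only their number. In the Gzmk or Pdcd1 cells edgeR called 2 of 5156 genes (0.0388%), both lower in ginkgetin. Hspa1a was at 768, 978 and 354 CPM in vehicle and 34.1, 29.95 and 64.4 CPM in ginkgetin libraries (-4.12 ± 0.48, adjusted p = 0.0104). Hspa1b was at 195, 287 and 454 against 36.0, 9.98 and 47.2 CPM (-3.22 ± 0.43, adjusted p = 0.0204). Both calls were lost when any ginkgetin library was left out (adjusted p from 0.0782 to 0.165), and that of Hspa1b also without vehicle 2. Ginkgetin 2 and 3 held only 22 and 32 Gzmk or Pdcd1 cells. With cells carrying markers of other cell types left out they kept 4 and 9, under the 10 required per library, so that this setting set 3 vehicle libraries against ginkgetin 1 alone and is given as values (-4.13 for Hspa1a and -2.01 for Hspa1b). Eomes was also at a lower level within these cells, at 161, 253 and 152 against 43.5, 79.9 and 120 CPM (-1.39 ± 0.37, adjusted p = 0.211). Tox was at 212, 238 and 219 against 185, 89.8 and 150 CPM, again without overlap. Klrg1, a receptor of short-lived effector cells, was at 15.6, 10.2 and 15.1 against 70.0, 29.95 and 34.4 CPM (1.81 ± 0.46, adjusted p = 0.199). It passed the filter on low counts through the ginkgetin libraries alone, so this is given as a description only. All CD8 T cells of ginkgetin 2 and 3 held 7 and 12 Klrg1 UMIs.

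With the replicate block 51 genes (0.989%) were called in the Gzmk or Pdcd1 cells, 34 higher and 17 lower, among them 1 endothelial marker higher and 2 macrophage and 1 hepatocyte markers lower. The neutrophil genes S100a8 and S100a9 were at 567 and 790 CPM in these cells of ginkgetin 3. In no other library were they above 49.9 and 59.9 CPM. Cell cycle genes had a positive log2 fold change in 16 of 16 (median 1.63), and 8 of them were among the 34. Mki67, the Ki-67 antigen, was at 79.8, 22.4 and 54.4 CPM in vehicle and 184, 69.9 and 520 CPM in ginkgetin libraries (2.14 ± 0.51, block adjusted p = 0.0139), so its libraries overlapped. Birc5, survivin, was at 87.6, 26.5 and 27.2 against 210, 230 and 176 CPM without overlap (2.03 ± 0.46, block adjusted p = 0.00789), and Ube2c, of the anaphase machinery, had 1.82 ± 0.59 (block adjusted p = 0.00789). Bcl2, which protects T cells from apoptosis, was called lower with the block, at 515, 797 and 636 against 178, 249 and 288 CPM (-1.54 ± 0.34, block adjusted p = 0.0167). With cells carrying markers of other cell types left out, where ginkgetin 1 was the only ginkgetin library, the log2 fold change was -0.38 for Mki67, 0.48 for Birc5 and 1.36 for Ube2c, and 10 of 13 cell cycle genes were positive (median 0.63).

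In the 1330 remaining CD8 T cells edgeR called none of 7112 genes (0%), with 477 at an unadjusted p under 0.05, 14 called by DESeq2 and 36 (0.506%) with the replicate block. Among the 36 were markers of other cells, 6 of 6 endothelial markers higher and 3 macrophage and 1 hepatocyte markers lower, and their part in the other calls was not tested. Hspa1a was again furthest apart, at 551, 741 and 290 against 44.7, 9.27 and 29.7 CPM (-4.30 ± 0.56, adjusted p = 0.0737, with the block 0.000215). Eomes was at 48.5, 144 and 53.6 against 18.6, 26.0 and 21.0 CPM (-1.80 ± 0.50, adjusted p = 0.512, with the block 0.0130), so that its lower level in ginkgetin libraries was also measured in cells without a Gzmk or Pdcd1 UMI. Ctla2a was at 547, 497 and 577 against 117, 160 and 133 CPM (-1.91 ± 0.36, adjusted p = 0.296, with the block 0.0112). With set A or B as the block 2 genes were called, and the calls of Eomes and Ctla2a were lost while Hspa1a was called. Klrc1, encoding the inhibitory receptor NKG2A, was at 82.1, 80.4 and 177 against 30.7, 36.2 and 76.0 CPM (-1.29 ± 0.36, adjusted p = 0.518).

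Within the libraries, Gzmk or Pdcd1 cells were set against the remaining CD8 T cells with the library as a block, Gzmk and Pdcd1 themselves being left untested since they chose the cells. edgeR called 141 of 6659 genes (2.12%), with 71 at a higher level in Gzmk or Pdcd1 cells (1.07%) and 70 at a lower level (1.05%). Naive and memory genes fell, with 12 of 17 called lower and a median log2 fold change of -1.57 against -0.0037 over all genes tested. Ccr7 was at 3.47, 0 and 10.1 CPM in the Gzmk or Pdcd1 cells of the vehicle libraries and at 32.9, 34.5 and 117 CPM in their remaining cells. In the ginkgetin libraries it was at 5.68, 39.9 and 0 CPM against 53.0, 148 and 235 CPM. The fall was seen in 6 of 6 libraries (-3.75 ± 0.29, adjusted p = 1.54e-07). Dapl1 (-3.63 ± 0.41, adjusted p = 1.60e-05), the chromatin organiser Satb1 (-2.62 ± 0.19, adjusted p = 1.14e-07) and Lef1 (-2.02 ± 0.18, adjusted p = 5.65e-07) fell in every library too. Il7r, the receptor for the survival cytokine IL-7, fell by 1.78, Tcf7 by 1.47, S1pr1, which guides exit from tissue, by 1.63, and its activator Klf2 by 1.29 on the log2 scale. Ccr7, Dapl1, Satb1, Lef1, Il7r, Tcf7 and Klf2 stayed called under each alternative in which they were tested, and S1pr1 lost its call when states were set after thinning.

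Some transcription factors, inhibitory receptors and chemokines of stimulated CD8 T cells rose in the same cells. Tox was at 212, 238 and 219 CPM in the Gzmk or Pdcd1 cells and 47.7, 94.8 and 38.6 CPM in the remaining cells of the vehicle libraries. In the ginkgetin libraries it was at 185, 89.8 and 150 against 34.4, 16.7 and 86.1 CPM, a rise in 6 of 6 libraries (1.80 ± 0.19, adjusted p = 6.71e-06). Eomes rose by 1.41 ± 0.16 (adjusted p = 1.73e-05) and Maf by 1.67, and Nr4a2, an orphan nuclear receptor induced by antigen receptor signals, by 1.07, so that 4 of 16 effector and exhaustion factors were called higher. Among 10 inhibitory receptor genes 3 were called higher, namely Ctla4 (1.41 ± 0.28, adjusted p = 0.00361), Lag3 (1.28 ± 0.24, adjusted p = 0.00219) and Entpd1 (1.13). The other members were mostly not higher, with 4 of the 10 positive and a list median of -0.12, and of 9 cytokines and chemokines 4 were positive (median -0.049). The chemokines Ccl3 (1.59 ± 0.26, adjusted p = 0.000628) and Ccl4 (1.13 ± 0.23, adjusted p = 0.00459) and the signalling regulator Rgs16 (2.80) were called higher as well. Without vehicle 1 the calls of Ctla4 (adjusted p = 0.0633), Ccl4, Nr4a2 and Entpd1 were lost, and those of Ctla4 (0.98) and Nr4a2 (0.91) were also lost when the states were set after thinning. Ccl5 and Nkg7, at 0.77 ± 0.14 and 0.69 ± 0.10 (adjusted p = 0.00219 and 0.000259), passed the adjusted p but not the fold. Gzma rose by 1.28 ± 0.23 (adjusted p = 0.00157) in 5 of 6 libraries and was the only one of 12 cytotoxic genes called, a call lost in 5 of 20 alternatives. Tox, Maf and Rgs16 kept their calls in all 20 alternatives, whereas Eomes lost it when the states were set after thinning and when Pdcd1 alone set them.

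NK receptor genes were lower in Gzmk or Pdcd1 cells in 12 of 12 tested, and 5 were called, Fcer1g, Klra3, Klra9, Klrb1c and Klrc2. Klra9, an inhibitory Ly49 receptor, fell by 2.19 (adjusted p = 0.000153). Fcer1g, the signalling adaptor of NK receptors, had -1.18, but -0.076 in cells with at least 1 Cd8b1 UMI, and its call was also lost without vehicle 1 and without ginkgetin 1. The call of Klrb1c was lost without vehicle 2 and without ginkgetin 2. Without scaling, Klrb1c was at 32.57 to 206.2 CPM in cells without and at 2.239 to 11.02 CPM in cells with a Cd8b1 UMI. Klra9 and Klrb1c were not tested with at least 1 Cd8b1 UMI required, so the part of cells without Cd8b1 in their fall was not tested. Klrd1, encoding CD94, was at -0.71 ± 0.13 (adjusted p = 0.00230), under the fold required, and at -0.465 with at least 1 Cd8b1 UMI required. The neutrophil genes S100a8 (1.55) and S100a9 (1.26) were called higher as well, with 567 and 790 CPM in the Gzmk or Pdcd1 cells of ginkgetin 3 and no more than 49.9 and 59.9 CPM in those of any other library. Without ginkgetin 3 the log2 fold change of S100a9 was -0.0072, and its call was also lost without vehicle 1.

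Cell cycle genes formed the other group called higher, 9 of 15 (median 1.57), with Ube2c at 2.65 ± 0.39, Birc5 at 1.89 ± 0.41, Mki67 at 1.82 ± 0.44 and Cks1b at 1.60 ± 0.26 (adjusted p = 0.000247, 0.00714, 0.0141 and 0.000702). The call of Mki67 was lost without vehicle 1 and without ginkgetin 3, and the whole list depended on how the states were set. When the states were set on cells thinned to 1000 UMIs, with 5 and 9 cells in the state in ginkgetin 2 and 3, 0 of 13 cell cycle genes were called, 4 of 13 were positive and the median was -0.11, with Mki67 at -0.068 and Birc5 at -0.12. In the same setting naive and memory genes kept a median of -1.62, with 10 of 16 called lower. The states differed little in median depth in some libraries (3349 and 3420 UMIs in vehicle 1) and more in others (4386 and 5703 in vehicle 3, 3581 and 2772 in ginkgetin 1).

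**Figure D3:**
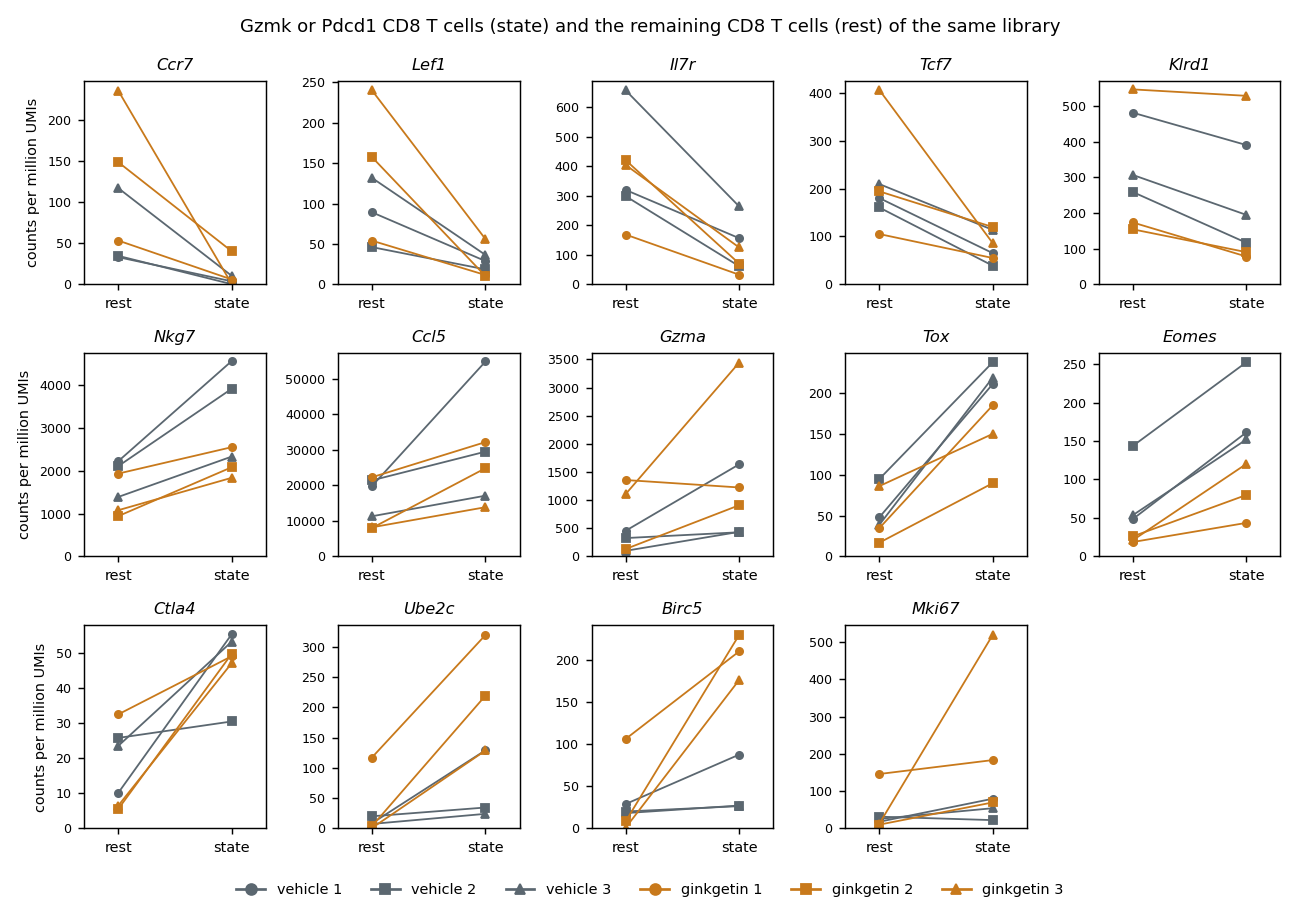
Levels of 14 named genes in CPM without TMM scaling, 1 gene per panel with its own linear axis from 0. They are shown for the remaining CD8 T cells (rest) and the Gzmk or Pdcd1 cells (state), with a line joining the values of 1 library. The lines of Ccr7, Lef1, Il7r and Tcf7 fall and those of Tox, Eomes and Ctla4 rise in 6 of 6 libraries, whereas Gzma rises in 5 of 6.

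Whether this contrast differed between the groups was tested as an interaction. It was called for 1 of 6659 genes (0.015%), the haemoglobin gene Hbb-bs, and for none by DESeq2. At an unadjusted p under 0.05 there were 374 genes by edgeR. The count depended on the libraries and the filter, since 57 genes were called without ginkgetin 1 and 28 without the filter on low counts, and only 164 ginkgetin cells were in the state.

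The CD8 T cells were not uniform in their coreceptor. In 438 of them no Cd8b1 UMI was found, so that they entered through Cd8a alone, and this split was made after values were seen and is described with no test. These cells were 18.4%, 11.7% and 13.1% of CD8 T cells in the vehicle libraries and 25.3%, 7.2% and 50.4% in the ginkgetin libraries. Ginkgetin 3 stood apart, with 124 such cells of 246. They had fewer UMIs than the cells with Cd8b1 in every library, yet Fcer1g was found in 35.5% to 92.7% of them and in 7.4% to 22.01% of the others. In ginkgetin 3 Gzmb was found in 92.7% of cells without and 18.0% of cells with Cd8b1. Itga1, the collagen-binding integrin of resident lymphocytes, was found there in 95.2% against 13.9%, and Klrb1c, encoding NK1.1, in 56.5% against 4.1%. In vehicle 1 the cells without Cd8b1 also held Gzmb and Fcer1g more often, in 83.8% against 51.7% and 84.6% against 22.01%. Gzmk or Pdcd1 cells were fewer among cells without Cd8b1 in 5 of 6 libraries, at 16.2% against 56.0% in vehicle 1, while in vehicle 3 they were 63.8% against 55.9%. With at least 1 Cd8b1 UMI required, CD8 T cells still made up 36.9% of CD3-gated cells in vehicle and 21.5% in ginkgetin libraries, and the thinned share of Gzmk or Pdcd1 cells was 29.3% against 6.35%.

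**Figure D4:**
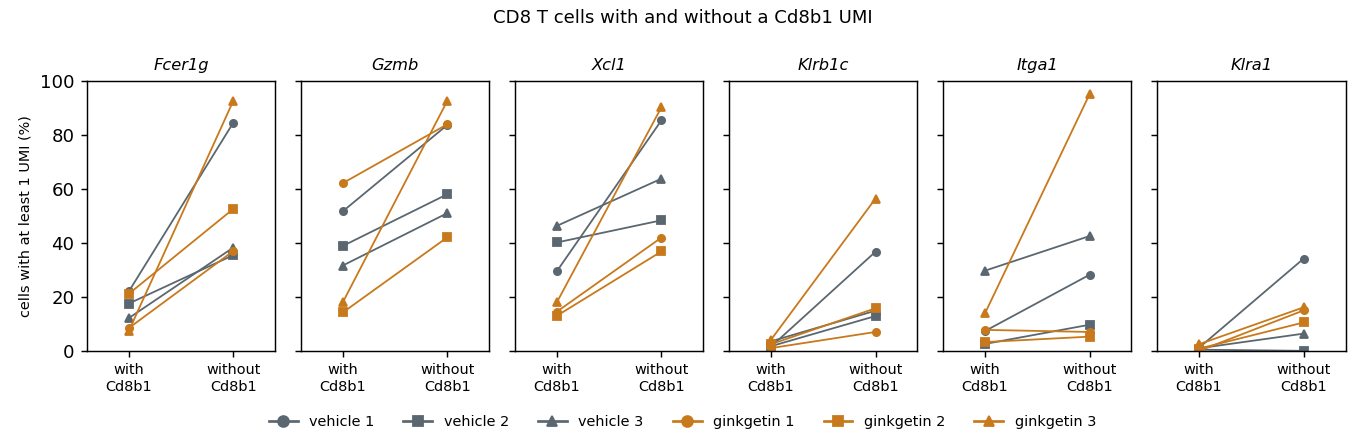
Percent of CD8 T cells with at least 1 UMI of named genes, by library, for cells without and with a Cd8b1 UMI. Fcer1g is found in 35.5% to 92.7% of cells without Cd8b1 and in 7.4% to 22.01% of cells with it, with the widest gap in ginkgetin 3.

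CD8 T cells were last set against conventional CD4 T cells of the same libraries (846 cells with Cd4 and without Cd8a, Cd8b1 or Foxp3 UMIs), with the library as a block and the genes of either rule untested. edgeR called 144 of 6925 genes (2.08%), with 70 at a higher (1.01%) and 74 at a lower level (1.07%) in CD8 T cells. Cytotoxic genes were higher, with 7 of 12 called. Gzma was at 1014, 385 and 271 CPM in CD8 and 3.64, 72.6 and 0 CPM in CD4 T cells of the vehicle libraries, and at 1313, 196 and 1443 against 12.2, 9.16 and 31.3 CPM in ginkgetin libraries (5.65 ± 0.41, adjusted p = 1.26e-06). Gzmb (3.22 ± 0.36, adjusted p = 4.40e-05), Gzmk (2.32 ± 0.22, adjusted p = 8.47e-06), perforin Prf1 (2.15 ± 0.30, adjusted p = 0.000367) and Nkg7 (1.63 ± 0.17, adjusted p = 2.97e-05) were also called. Chemokines followed, Ccl4 at 3.96 ± 0.33, Ccl3 at 3.49 ± 0.32 and Ccl5 at 2.59 ± 0.19. Among receptors, Klrd1 (2.35 ± 0.30), Cd160 (2.13 ± 0.33), Cd244 (5.43), the adhesion molecule Jaml (2.44 ± 0.21) and Cd7 (2.65 ± 0.35) were higher. Of 11 NK receptors 6 and of 12 inhibitory receptors 3 were called higher. When at least 1 Cd8b1 UMI was required these counts were 2 of 8 and 0 of 9, and the call of Cd160 was lost (1.42).

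The factors of the lineages divided in the same way. Eomes was at 102, 207 and 104 CPM in CD8 and 7.27, 26.7 and 20.4 CPM in CD4 T cells of the vehicle libraries, and at 26.8, 30.5 and 35.3 against 1.22, 3.05 and 0 CPM in the ginkgetin libraries (3.401 ± 0.27, adjusted p = 2.83e-06). The gap was thus found in the ginkgetin libraries as well, at lower levels on both sides. Runx3, which silences Cd4 in the CD8 lineage, was called higher (1.12; 0.94 and not called with cells carrying markers of other cell types left out), and Zbtb7b, the ThPOK factor of CD4 commitment, lower (-2.84 ± 0.22, adjusted p = 1.48e-06). The helper genes Cd40lg (-3.78 ± 0.31), Tnfrsf4, encoding OX40 (-4.44 ± 0.40), Izumo1r, encoding a folate receptor family member (-2.52 ± 0.13), Icos (-2.24) and Maf (-2.11) were lower in CD8 T cells of 6 of 6 libraries. The checkpoint genes split, with Lag3 higher (1.70 ± 0.44, adjusted p = 0.0353, in 4 of 6 libraries) and Ctla4 lower (-1.74 ± 0.19, adjusted p = 3.86e-05). The Lag3 call was lost in 8 of 16 alternatives, among them those without vehicle 1, vehicle 2, ginkgetin 1 or ginkgetin 3. Of 18 naive and memory genes 2 were called higher. Of the markers of other cells, C1qb and C1qc of the macrophage list were called lower and S100a9 and Itgax, an integrin of dendritic cells that NK and effector T cells also carry, higher, and their part in this comparison was not tested. With cells carrying 2 or more UMIs of such markers left out, Gzmb had 3.31, Ccl4 4.71 and Cd40lg -3.39.

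**Figure D5:**
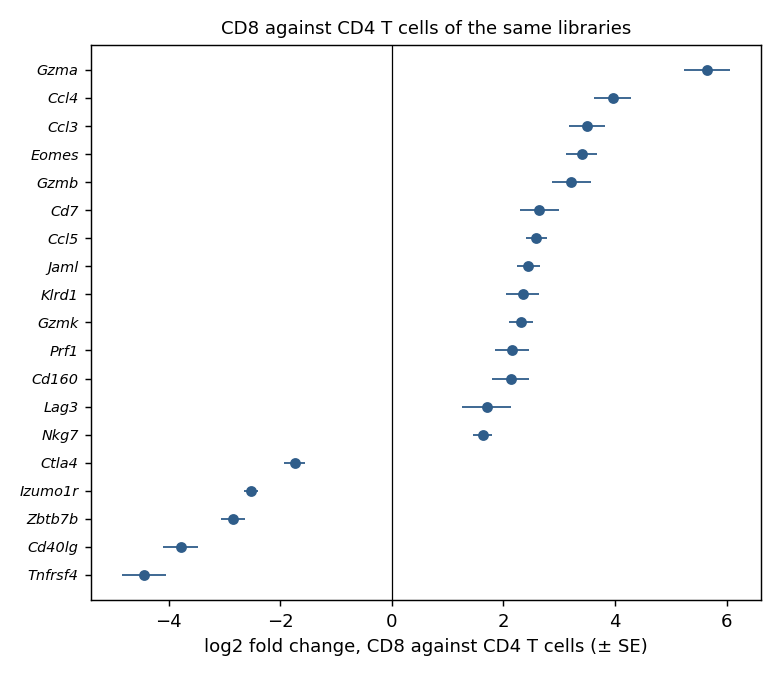
Log2 fold change of named genes in CD8 against conventional CD4 T cells of the same 6 libraries, from edgeR with the library as a block, with bars of ± SE. Cytotoxic genes and chemokines lie on the right, from Nkg7 (1.63) to Gzma (5.65), and Ctla4 (-1.74), Izumo1r, Zbtb7b, Cd40lg and Tnfrsf4 (-4.44) on the left.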

How the data were processed

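Non-parenchymal liver cells were profiled on the 10x Chromium platform in 6 libraries, 3 per group, grouped by the labels' treatment. The authors deposited 1 table of raw UMI counts per library, with genes in rows and cells in columns, made on the GRCm38 (mm10) build per the submitters' processing notes; the aligner is not given in the sources used here. The deposited counts had no further scaling. The tables listed the same genes, but some were counted in only 1 of the 2 table sets, which were defined by shared barcodes. Of these, 305 symbol pairs were merged and 2589 genes (T cell receptor genes included) were left out. This left 16455 genes. No doublets were removed. The members and gene lists were chosen with earlier results of these data known.

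Cells were kept and gated as in the report. The UMIs of a population were summed per library with 10 or more cells and fitted in R 4.3.3 with edgeR 4.0.16 (TMM, filterByExpr, quasi-likelihood test) over all genes. Genes of the rule stayed in library sizes but were not tested. Named genes were 45 fixed genes and, per comparison, up to 8 called genes in each direction, taken by fold among those at 50 CPM or more that did not overlap between groups or moved alike in every library; others were examples from the fixed lists. DESeq2 1.42.0 was an alternative. Shares were compared over libraries by exact permutation in Python 3.11.15, and the precision of a share is set by the number of cells. P-values measure only the spread between these libraries, which the labels do not tie to separate animals. The replicate numbers were taken to pair the libraries because the deviations of same-numbered libraries from their group means correlated at 0.288, 0.132 and 0.545 over 8156 genes. Differently numbered libraries correlated at -0.457 to 0.256, and vehicle 2 with ginkgetin 1, both of set A, at 0.256, so within set A the numbers separated the libraries weakly. The scripts were tested on simulated data with known changes.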

Additional observations from a re-analysis of the deposited data

Results flagged for a closer look

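Hbb-bs, encoding a haemoglobin chain of red cells, was the only gene for which the difference between Gzmk or Pdcd1 cells and the remaining CD8 T cells itself differed between the groups, with the effect in ginkgetin minus that in vehicle libraries at -9.29 on the log2 scale (SE 0.88, edgeR adjusted p = 8.70e-06; DESeq2 called no gene). Single cells carried the counts. In vehicle 3 a single cell of the Gzmk or Pdcd1 group held 2504 of its 2528 Hbb-bs UMIs, in vehicle 2 a single cell held 1132 of 1136, and in ginkgetin 1 a single remaining cell held 240 of 245. In the other populations of these 6 libraries no cell held more than 12. Groups of 3 libraries were not searched for libraries far from the others.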

How the results depend on the processing

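The 54 share values under other cell filters, gates, depths, left-out libraries, single table sets (A or B) and tests kept their direction. The size of the difference in CD8 T cells among kept cells did not hold. It went from -1.76 points to -8.96 with the UMI range of 250 to 5000. With a library left out it ran from -3.77 (without ginkgetin 1) to -0.022 (without ginkgetin 2). It was -14.2 with cells carrying other markers left out of both counts, which changes the denominator. On numbers of cells edgeR gave a log2 change of -0.53 for CD8 T cells among CD3-gated cells (-0.53 with the replicate block) and -2.33 for Gzmk or Pdcd1 cells (-2.66 with the replicate block), each past the 0.05 threshold that 3 against 3 permutations cannot reach. The counts of called genes moved more, and the cause was not tested. Between groups in all CD8 T cells, 0 became 30 with the replicate block, 2 with the table set as a block, 49 with DESeq2, 49 without the gene filter and 0 to 1 with a library left out. In Gzmk or Pdcd1 cells, 2 became 51 with the replicate block, 55 with the table set as a block, 17 with DESeq2, 148 without the gene filter, 4 with at least 1 Cd8b1 UMI (an alternative chosen after seeing the data), 0 with cells carrying other markers left out (ginkgetin 2 and 3 then fell under 10 cells, which leaves 3 libraries against 1) and 0 to 30 with a library left out (30 without vehicle 1). In the remaining cells, 0 became 36 with the replicate block, 2 with the table set as a block, 14 with DESeq2, 92 without the gene filter, 1 with upper-quartile scaling, 1 with at least 1 Cd8b1 UMI and 0 to 3 with a library left out. For state within CD8 T cells, 141 became 74 with the UMI range of 250 to 5000 (without ginkgetin 3, at 8 cells), 33 with cells carrying other markers left out (without ginkgetin 2 and 3, again under 10 cells), 88 with DESeq2, 286 without the gene filter, 91 with Gzmk alone, 81 with states set after thinning and 80 to 149 with a library left out (80 without vehicle 1). The interaction count of 1 became 0 with DESeq2, 28 without the gene filter and 1 to 57 with a library left out (57 without ginkgetin 1). For CD8 against CD4 T cells, 144 became 48 with cells carrying other markers left out and 342 without the gene filter. The replicate block changed no other call of a share. Of 1593 values of named genes under alternatives, 6 changed sign: Mki67 between groups with cells carrying other markers left out (-0.45 in all CD8 T cells, -0.38 in Gzmk or Pdcd1 cells, with ginkgetin 1 as the only ginkgetin library), Mki67 (-0.068) and Birc5 (-0.12) by state after thinning, and S100a9 by state over replicates 1 and 2 only (-0.027) and with a library left out (-0.0072 without ginkgetin 3 to 1.41). The comparison of the groups in replicate 3 alone gave no test, and Pdcd1 alone as the state left out ginkgetin 2 and 3. Values in the state are limited by the number of cells, 22 and 32 in ginkgetin 2 and 3.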

Other observations

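Genes induced by interferon and genes of class I presentation leaned lower in the summed CD8 T cells of the ginkgetin libraries, and none was called. Of 23 interferon-stimulated genes 20 had a negative log2 fold change (median -0.50), and 5 of the 23 were lower in every ginkgetin library than in any vehicle library, against 7.03% of all genes tested. Isg15, a ubiquitin-like antiviral protein, was at 61.3, 98.9 and 73.2 against 32.4, 25.5 and 51.4 CPM (-1.13, edgeR adjusted p = 0.369). Of 12 class I genes 11 were negative (median -0.58) and 4 did not overlap. Psmb8, a subunit of the immunoproteasome, was at 836, 876 and 852 against 568, 450 and 463 CPM (-0.75, edgeR adjusted p = 0.609). Between Gzmk or Pdcd1 cells and the rest of the same libraries 0 genes of either list were called. Of the class I genes 10 of 12 were positive (median 0.14) and 8 of 12 were higher in Gzmk or Pdcd1 cells in all 6 libraries, as were 568 of 6659 genes tested. Of the interferon-stimulated genes 10 of 22 were positive (median -0.04).

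Bcl2 was 1 of 3 naive or memory genes of 18 with a negative log2 fold change in the comparison of the groups, at 619, 757 and 623 CPM in vehicle and 182, 398 and 437 CPM in ginkgetin libraries without overlap (-0.96, edgeR adjusted p = 0.575). Cx3cr1, a receptor of circulating effector cells, was rare in CD8 T cells, found in 0% to 1.11% of thinned cells of the vehicle libraries and in 2.53%, 0.377% and 0.408% of those of the ginkgetin libraries.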
